A study of Homo sapiens with 8 samples.

Results

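Antisense RNA genes are read from the strand opposite another gene. They were taken here as the genes whose type in the GENCODE 29 annotation is antisense, and each was paired with the protein-coding gene it overlaps on the other strand (its partner). Where an antisense gene overlapped several such genes, the partner was the one with the longest overlap. Of 52719 genes in the table, 5108 were antisense genes, and 4454 of them had a partner. A mean of 1 TPM or more over all 8 libraries was needed for testing, and 861 of the 4454 reached it. In 695 pairs the partner reached it as well.

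The RNA came from SH-SY5Y, a clonal human neuroblastoma line of noradrenergic character, and was made into libraries with a stranded mRNA kit. Of the 8 libraries, 4 were of undifferentiated cells (replicates 17 to 20) and 4 (replicates 21 to 24) of cells kept with 9-cis retinoic acid at 1 µM over 7 days to differentiate them. The labels give no dose, vehicle or day for the undifferentiated cells, so time in culture and treatment cannot be told apart, and nothing says that replicates were separate cultures, so p-values measure only the spread between these libraries. The medium, DMEM/F12 with GlutaMAX and foetal calf serum, is the same for both groups in the labels.

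An antisense RNA can start back to back with its partner, run into the partner's end, or lie within it. Here, back to back (head to head) means that both starts lie within the overlap and neither gene holds the other. The starts can be any distance apart. Some antisense RNAs act on the partner, by transcription across it, by bringing chromatin complexes to it or by pairing with its RNA. Others share a promoter region with it or carry microRNAs, short RNAs that repress messenger RNAs matching their seed. In cells of the sympathetic lineage, several antisense genes lie beside genes of noradrenaline synthesis and of its transcription factors.

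The sequences that the results below turn on are shown first. DNM3OS, an antisense gene within the dynamin gene DNM3, carries the genes of microRNAs 214 and 199a, and DLEU2 carries those of microRNAs 15a and 16. Mature sequences are from RefSeq (GRCh38.p14), 5′ to 3′, with the seed (bases 2 to 8) in capitals.
hsa-miR-214-3p: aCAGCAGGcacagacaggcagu
hsa-miR-199a-5p: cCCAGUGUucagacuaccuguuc
hsa-miR-199a-3p: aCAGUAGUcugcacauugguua
hsa-miR-92b-3p: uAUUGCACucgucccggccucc
hsa-miR-15a-5p: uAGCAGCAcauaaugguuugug
hsa-miR-16-5p: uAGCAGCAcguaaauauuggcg
The last pair share the seed AGCAGCA, and the other 4 have seeds of their own.

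Antisense exons can lie across the coding exons of the partner, so that both RNAs hold the same bases in opposite sense. This is shown for DBH, whose enzyme makes noradrenaline from dopamine, and for SNX10, an endosomal sorting nexin, because in both pairs the antisense gene and the partner changed in opposite directions. The stretches are chr9:133657127-133657229 and chr7:26372491-26372568, from the GENCODE 29 transcripts (GRCh38). Every base shown is shared, so none is in capitals.
DBH, plus strand: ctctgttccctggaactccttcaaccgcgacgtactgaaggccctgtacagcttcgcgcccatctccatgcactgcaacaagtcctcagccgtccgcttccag
DBH-AS1, minus strand: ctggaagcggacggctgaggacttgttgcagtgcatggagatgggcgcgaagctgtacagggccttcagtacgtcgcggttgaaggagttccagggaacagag
SNX10, plus strand: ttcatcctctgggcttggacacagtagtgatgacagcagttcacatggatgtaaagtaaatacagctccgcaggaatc
AC004540.2, minus strand: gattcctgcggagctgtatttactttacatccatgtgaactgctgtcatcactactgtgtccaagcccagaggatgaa

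For pairs that start back to back, the 250 bases before a RefSeq start site (GRCh38.p14) are given. They are shown for the pair with the largest joint rise, COLCA1 with COLCA2 (POU2AF3 in RefSeq), and for LIFR, the receptor of leukaemia inhibitory factor. Of a gene's RefSeq windows that touch no annotated untranslated region, the one nearest the start of the other gene of its pair was taken. The windows are chr11:111300037-111300286 (minus strand), chr11:111298296-111298545 (plus strand) and chr5:38556647-38556896 (minus strand). The GENCODE 29 start of LIFR-AS1, at base 38556786, lies within the LIFR window, which was chosen for its closeness to that start. The GENCODE 29 starts of LIFR itself (base 38608354) and of COLCA1 (base 111305045) lie outside their windows. Capitals mark half-sites of the retinoic acid receptor, searched on both strands in 4 forms, which were AGGTCA, then GGGTCA, then the form AGTTCA and lastly GGTTCA.
COLCA1: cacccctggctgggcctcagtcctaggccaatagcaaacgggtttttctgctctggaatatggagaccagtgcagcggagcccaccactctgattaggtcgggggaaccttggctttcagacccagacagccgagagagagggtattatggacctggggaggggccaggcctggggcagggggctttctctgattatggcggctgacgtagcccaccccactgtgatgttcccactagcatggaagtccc
POU2AF3: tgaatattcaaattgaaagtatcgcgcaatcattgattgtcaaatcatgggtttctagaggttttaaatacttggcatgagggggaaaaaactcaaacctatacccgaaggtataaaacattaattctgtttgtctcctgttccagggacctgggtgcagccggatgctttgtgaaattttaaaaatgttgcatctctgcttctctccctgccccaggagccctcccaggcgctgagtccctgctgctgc
LIFR: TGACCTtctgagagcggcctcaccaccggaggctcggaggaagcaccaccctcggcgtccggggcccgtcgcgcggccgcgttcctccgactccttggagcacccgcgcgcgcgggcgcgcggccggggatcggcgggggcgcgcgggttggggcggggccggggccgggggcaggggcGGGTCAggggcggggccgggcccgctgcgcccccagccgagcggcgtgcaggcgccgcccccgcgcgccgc
The LIFR window held 2 matches and the other windows held none. Over all 35116 RefSeq windows of this length, 33.8% held at least 1 match, and 38.8% of 27305 genes had a match in any of their windows. A RefSeq window was found for 119 of the antisense genes that rose, and 39 of these genes (32.8%) had a match in any of their windows. Counted in the same way, by gene, the shares were 13 of 34 (38.2%) for those that fell and 69 of 219 (31.5%) for those not called. Matches are a description of the letters only.

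All 10 sympathoadrenal markers listed for the check of the cell line reached 1 TPM, with a summed level of 1855 to 1956 TPM in undifferentiated and 1226 to 1439 TPM in differentiated libraries. None of 4 blood markers and none of 2 endothelial markers did. Epithelial markers (3 of 4 at 1 TPM) summed to 2.09 to 3.32 TPM and then 13.5 to 18.0 TPM, and Schwann and glial markers (3 of 5, SOX10 at 0) to 6.45 to 9.69 and then 16.6 to 18.3 TPM. These sums moved with the groups, and their part in the changes of antisense genes was not tested. In bulk RNA, fewer cells of a type and less RNA per cell cannot be told apart.

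More antisense genes rose than fell. Each gene's log2(TPM+1) was compared with limma, and a gene was called where the p adjusted by Benjamini and Hochberg over all 17077 genes tested was under 0.05. Of the 861 antisense genes with a partner, 248 rose, 65 fell and 548 were not called, with a median change of 0.15 on the log2 scale. Over all genes tested, 51.3% were called (33.9% higher and 17.4% lower) with a median of 0.10. The called share of antisense genes was 36.4%, against 59.1% of the 12606 protein-coding genes and 36.2% of the 983 lincRNA genes, which are long RNA genes that lie between other genes. Rises made up 79.2% of the antisense calls in the values as deposited, 64.7% after median-of-ratios scaling (205 rises, 112 falls) and 49.2% after quantile normalization (158 rises, 163 falls). Over all genes the share of rises among calls was 66.1%, 50.5% and 45.4% on these scales, so its size depended on the scale, and that of antisense genes was the higher on each. The scalings placed the median of all genes at -0.02 and -0.06. The difference between the shares was not tested. Lane 7 held undifferentiated replicates 17 and 18, and lane 8 held all others. In lane 8 alone 170 of the 861 antisense genes rose and 42 fell, and of all 17077 genes 4418 rose and 1914 fell. Rises made up 80.2% of the antisense calls there and 69.8% of the calls over all genes.

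The called share went up with the level, and within a band of levels it was lower for antisense genes than for all genes. In the band of 1 to under 2 TPM, 22.5% of 382 antisense genes were called, against 30.8% of all genes in that band. From 2 to under 5 TPM the shares were 36.6% of 350 antisense genes and 44.0% of all genes. At 5 TPM or more they were 51.5% of 295 antisense genes and 57.0% of all genes. The bands hold antisense genes with and without a partner. Of 166 tested antisense genes without a partner, 37 rose and 16 fell.

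Large changes were fewer. Among the 861, rises of at least 1 on the log2 scale numbered 50 and such falls 11 (5.81% and 1.28%), where 8.84% and 2.55% of all genes did. In 298 of the 861 (34.6%), no library of one group overlapped the other, against 49.6% of all genes tested. Antisense genes made up 0.669% to 0.705% of the matched TPM in undifferentiated libraries and 0.717% to 0.884% in differentiated ones, with replicate 22 the lowest of the latter. The 5 most abundant antisense genes held 13.8% to 14.5% of that sum in a library. Across antisense genes, libraries correlated at 0.938 to 0.953 within the undifferentiated group, 0.899 to 0.951 within the differentiated group and 0.797 to 0.852 between groups.

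Values per library follow in TPM, which is corrected for length, in the order of replicates 17 to 20 and then 21 to 24. Positions are on GRCh38 from GENCODE 29. Standard errors (SE), fold changes and limma adjusted p-values were computed from log2(TPM+1), so that changes of low genes are understated. Whether the authors' counting used strand is not given in the sources used here, so where exons of a pair overlap, reads of an antisense gene and of its partner may not have been told apart. Some antisense genes overlap another antisense gene on their own strand, which makes their values uncertain. Among them are AL137024.1, AC007128.1, HAGLR, TBX2-AS1 and MCM3AP-AS1.

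The largest rise was that of AC068533.3 (chr7:66119603-66165011, minus strand), which runs tail to tail into CRCP, a subunit gene of RNA polymerase III, without exon overlap. It was at 1.17, 1.34, 0.95 and 0.804 TPM in undifferentiated and 37.6, 29.5, 36.2 and 32.4 TPM in differentiated libraries. All differentiated libraries were far above all undifferentiated ones, with a log2 fold change of 4.08 (SE 0.11, adjusted p = 4.06e-08). CRCP was at 44.4, 41.9, 37.6 and 40.004 and then 78.03, 41.9, 65.6 and 83.6 TPM, and replicate 22 stayed at the undifferentiated level. CRCP was called higher by 0.66 (SE 0.20, adjusted p = 0.0228), but not once replicate 19, 20, 21, 23 or 24 was left out or lane was accounted for (0.54 to 0.73, highest adjusted p 0.0889). AC068533.3 also runs tail to tail into AC068533.4, a gene annotated as protein-coding, which rose from 1.95 ± 0.457 to 8.44 ± 2.35 TPM (1.66 (SE 0.19, adjusted p = 0.000124)). The ratio of AC068533.3 to CRCP, the difference of their log2(TPM+1) values, rose by 3.42 (SE 0.17, adjusted p = 2.1e-06).

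COLCA1 (chr11:111290787-111305045, minus strand) and COLCA2 (chr11:111298555-111308735, plus strand) start back to back, overlap over 6491 bases, 436 of them exonic in both, and went from near absence to moderate levels together. COLCA2 encodes a coactivator of the POU2F3 transcription factor. COLCA1 was at 0.0771, 0.0762, 0.0418 and 0.0839 and then 18.5, 10.9, 14.3 and 16.2 TPM, a rise of 3.88 (SE 0.15, adjusted p = 2.6e-07). COLCA2 was at 0.0579, 0.169, 0.197 and 0.209 and then 13.6, 12.98, 11.4 and 13.6 TPM, a rise of 3.58 (SE 0.09, adjusted p = 3.35e-08). Neither gene reached 1 TPM in any undifferentiated library, and both were at 10.9 TPM or more in every differentiated one. Their ratio did not change by the test (0.3 (SE 0.14, adjusted p = 0.116)), but was called higher without replicate 22 (0.43) and with a pseudocount of 0.1 (0.76).

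Other leading rises, apart from that of AC107884.1 given further below, came with smaller or no called changes of the partner. AL354719.2 (chr6:63806836-63822642, plus strand) lies inside EYS, a photoreceptor gene, without exon overlap. It went from 1.701, 2.15, 1.76 and 1.79 to 18.4, 17.4, 19.7 and 19.4 TPM, a rise of 2.79 (SE 0.08, adjusted p = 4.19e-08). EYS was at 1.25 ± 0.216 and 1.77 ± 0.374 TPM (SD, n = 4 each) and did not pass the test, except when replicate 22 was left out (0.39). AC007938.3 lies across a coding exon of the coatomer gene COPG2, sharing 139 exonic bases. It was at 0, 0.1001, 0.193 and 0.109 and then 4.29, 3.53, 3.76 and 6.36 TPM, a rise of 2.29 (SE 0.17, adjusted p = 9.72e-06) from almost nothing. COPG2, far more abundant at 79.4 ± 3.34 and 91.99 ± 6.92 TPM, was called higher by 0.21, a call lost under 8 alternatives that included both scalings and leaving out replicate 17, 20, 23 or 24.

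DLGAP1-AS1 and DLGAP1-AS2 lie within the gene of the postsynaptic scaffold DLGAP1 and rose together, from 2.397 ± 0.441 to 15.5 ± 2.19 TPM and from 1.41 ± 0.118 to 8.53 ± 0.549 TPM. Their log2 fold changes were 2.28 (SE 0.13) and 1.98 (SE 0.08), with adjusted p-values of 1.98e-06 and 3.3e-07. DLGAP1 itself was below the test's level, at 0.602 and 0.391 TPM. AC023043.1, with the current name COSMOC, runs tail to tail into ELP2, a subunit gene of the Elongator complex. It went from 0.738, 0.727, 1.84 and 1.22 to 4.597, 9.17, 7.904 and 7.73 TPM (1.97 (SE 0.23, adjusted p = 0.000151)) while ELP2 fell from 141 ± 4.76 to 98.7 ± 19.1 TPM (-0.53 (SE 0.13, adjusted p = 0.00965)). The fall of ELP2 was not called in lane 8 alone (-0.52, adjusted p = 0.0767). AP006284.1 (current name LMNTD2-AS1) rose by 1.97 beside a rise of 0.62 for LMNTD2.

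**Figure D1:**
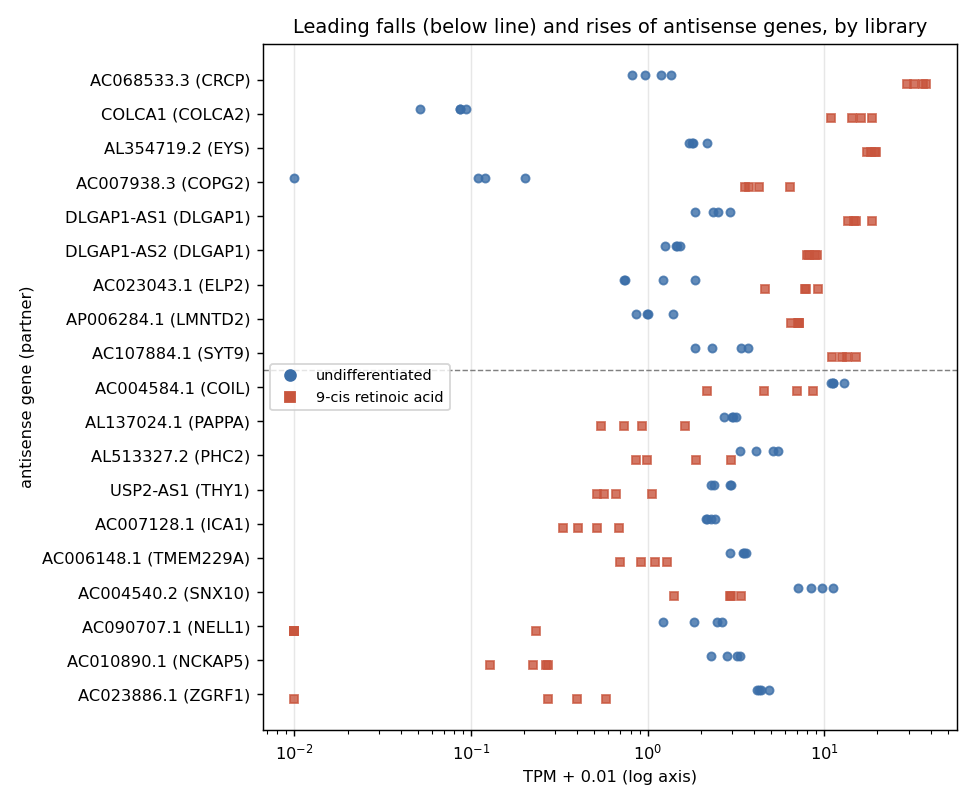
Level in each library of 9 of the 10 antisense genes that rose most and the 10 that fell most (TPM + 0.01, log axis, partner in brackets), blue circles for undifferentiated and red squares for 9-cis retinoic acid. AC068533.3 goes from about 1.07 to 33.9 TPM on average and COLCA1 from 0.0697 to 14.97 TPM, and points at the left edge are libraries at 0.

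The largest fall was that of AC023886.1, with the current name NEUROG2-AS1 (chr4:112515385-112546881, plus strand). It was at 4.39, 4.85, 4.15 and 4.28 TPM and then at 0, 0.264, 0.574 and 0.387 TPM, a log2 fold change of -2.07 (SE 0.15, adjusted p = 9.14e-06). Its longest overlap is with the tail of ZGRF1, which fell by less (-0.6 (SE 0.11, adjusted p = 0.00188)). It also starts back to back with NEUROG2, a proneural transcription factor that drives neuronal commitment, over 788 bases. NEUROG2 fell from 12.6 ± 1.005 to 0.837 ± 0.0903 TPM (SD, n = 4 each), a change of -2.89 on the log2 scale (adjusted p = 6.05e-08). The antisense gene and NEUROG2 were thus both below 1 TPM on average after treatment.

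AC010890.1 (NCKAP5-AS2) went from 2.29, 2.79, 3.34 and 3.205 to 0.262, 0.213, 0.255 and 0.119 TPM, a log2 fold change of -1.68 (SE 0.12, adjusted p = 1.07e-05). Its partner NCKAP5 was too low to test, at 1.05 ± 0.0705 and 0.213 ± 0.2403 TPM. AC090707.1 was at 1.204, 2.48, 2.63 and 1.81 and then 0, 0, 0 and 0.224 TPM, so it was listed at 0 in 3 of 4 differentiated libraries. Its partner NELL1, which encodes a secreted glycoprotein, was at 11.7, 14.6, 13.2 and 13.8 and then 2.31, 1.81, 2.12 and 1.82 TPM. Both genes fell, with log2 fold changes of -1.5 and -2.25 and no overlap between groups. The sign of their ratio change depended on the pseudocount (0.75 at 1 and -1.26 at 0.1).

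Several falls stood against a partner that rose or was not called. AC004540.2, with the current name SNX10-AS1, shares 78 coding bases with SNX10, those shown above. It went from 11.1, 8.42, 7.08 and 9.68 to 3.35, 2.96, 2.93 and 1.41 TPM (-1.48 (SE 0.21, adjusted p = 0.000438)). SNX10 went from 6.88, 7.14, 5.75 and 5.598 to 10.7, 11.2, 11.5 and 12.1 TPM (0.76 (SE 0.09, adjusted p = 0.000144)). The order of the levels turned over, since SNX10-AS1 was above SNX10 in every undifferentiated library and below it in every differentiated one. USP2-AS1 spans THY1, a cell surface glycoprotein gene of neurons, and fell by 1.11 (SE 0.14, adjusted p = 0.000207) while THY1 rose from 63.9 ± 3.601 to 99.1 ± 4.07 TPM (0.62 (SE 0.05, adjusted p = 2.05e-05)). USP2, for which it is named, does not overlap it in GENCODE 29 and fell by 0.42 (adjusted p = 0.0139). AL513327.2 (PHC2-AS1) fell by 1.1 with no call for the polycomb gene PHC2 (0.1). AC004584.1 instead fell, by 1.04, together with the coilin gene COIL, which was also called lower (-0.39 (SE 0.06, adjusted p = 0.000491)). The call of AC004584.1 was lost without replicate 18 (-0.99) or 23 (-1.0), in lane 8 alone (adjusted p = 0.132) and with lane as a term (adjusted p = 0.0919).

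In 163 of the 695 tested pairs both genes were called. Both rose in 97 pairs and both fell in 17, the antisense gene rose and the partner fell in 35, and the reverse held in 14. The direction was thus the same in 114 pairs (69.9%) and opposite in 49. Within lane 8 the share of the same direction was 79.6%, with 20 opposite pairs, and opposite pairs numbered 32 without replicate 18 and 27 with lane as a term. In 83 pairs only the antisense gene was called, in 258 only the partner and in 191 neither. Of 649 different partners tested, 271 rose and 129 fell (61.6%), close to the 59.1% called among protein-coding genes. Across the 695 pairs the changes correlated with a Pearson r of 0.30 and a Spearman rho of 0.21, as a description over pairs that share all 8 libraries. Because rises were more common than falls in both sets, a majority of same-direction pairs does not by itself set these pairs apart.

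The nearest other gene gave a yardstick. For 573 of the pairs a protein-coding gene that overlaps neither member, at a median distance of 7099 bases, was also tested. Among these, antisense gene and partner had the same direction in 93 of 134 pairs with both called (69.4%, r = 0.27). Antisense gene and nearest other gene had it in 103 of 132 (78.0%, r = 0.25). Direction was thus shared with the overlapping partner no more often than with a neighbour that does not overlap, and the difference between these shares was not tested.

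**Figure D2:**
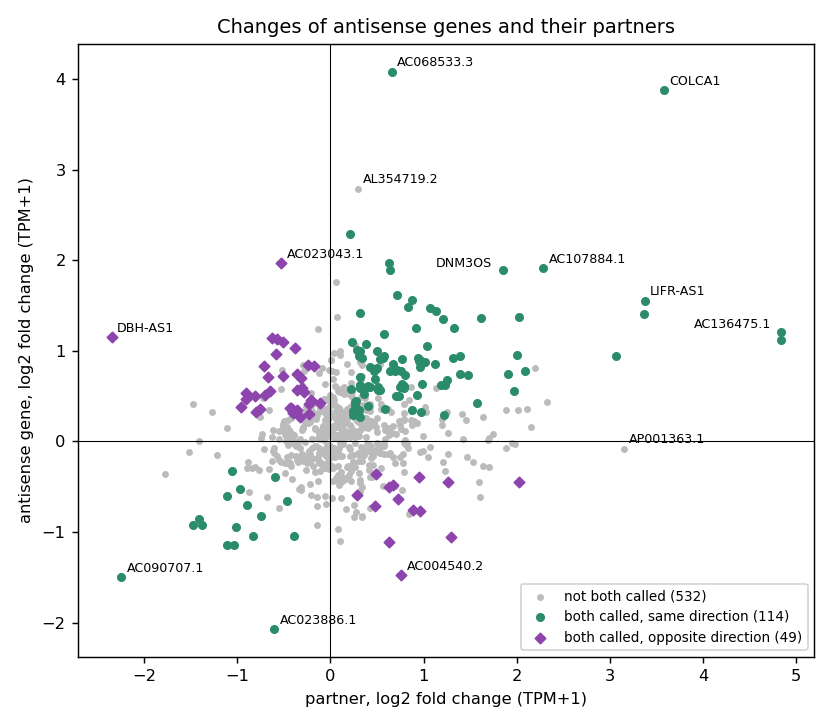
Log2 fold change of the antisense gene (vertical) against that of its partner (horizontal) for the 695 pairs with both genes tested, with grey for pairs not both called. Of the pairs with both called, 114 lie in the quadrants of shared direction (green circles) and 49 in those of opposite direction (purple diamonds), with COLCA1 and DBH-AS1 at the extremes.

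Direction differed between layouts in the main fit. In the 185 pairs that start back to back (head to head) with overlapping exons, both genes were called in 47, with the same direction in 36 (76.6%) and the opposite in 11. Their changes correlated with r = 0.58 and rho = 0.40, or r = 0.49 over 184 pairs without COLCA1. Where the antisense gene lay inside the partner, 44 of 57 pairs with both called shared direction (77.2%). In the 124 tail to tail pairs with overlapping exons the split was the other way, with 11 pairs of the same and 19 of opposite direction, 15 of them with a rising antisense gene and a falling partner (r = 0.06). The 42 tail to tail pairs without exon overlap had the same direction in 14 of 16 (r = 0.39). Over all layouts the same direction held in 74 of 113 pairs with exon overlap (65.5%) and 40 of 50 without it (80.0%). These counts describe pairs that share libraries and, where exons overlap, bases, and were not tested. They were not repeated by layout under the alternatives. Over all layouts, opposite pairs numbered only 20 in lane 8 alone and 27 with lane as a term.

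**Figure D3:**
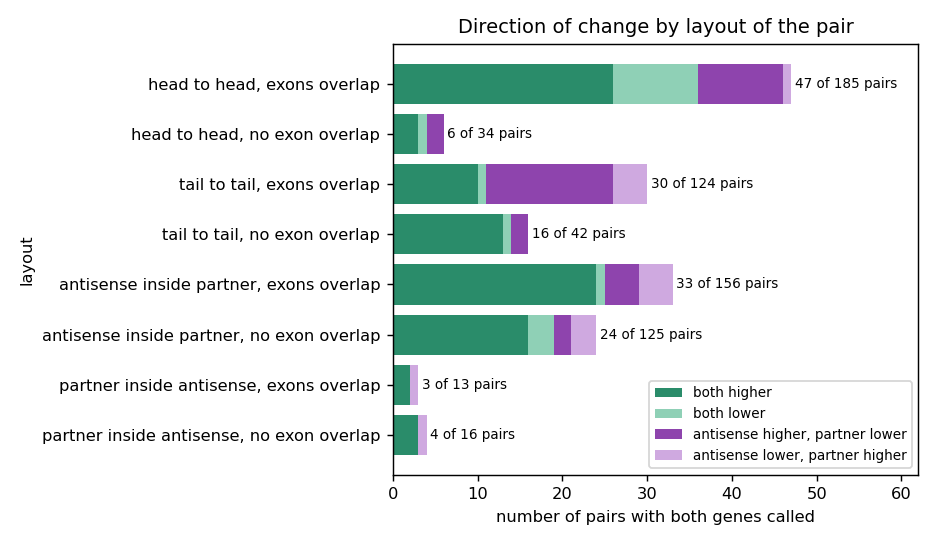
Number of pairs with both genes called, by layout and exon overlap, split by direction (dark green both higher, light green both lower, dark purple antisense higher and partner lower, light purple the reverse). Tail to tail pairs with overlapping exons are the row with more purple than green, 19 against 11 pairs.

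LIFR-AS1 (chr5:38556786-38671216, plus strand) and LIFR overlap head to head over 51569 bases, 629 of them exonic in both, and rose together. LIFR-AS1 was at 0.782, 0.754, 0.637 and 0.678 and then 4.67, 3.25, 4.41 and 3.86 TPM (1.55 (SE 0.11, adjusted p = 1.06e-05)). LIFR was at 3.29, 3.66, 3.89 and 3.73 and then 51.9, 36.3, 46.5 and 56.2 TPM (3.37 (SE 0.13, adjusted p = 2.56e-07)). Groups did not overlap for either gene, and replicate 22 was the lowest differentiated library for both. The partner rose by more, so the ratio fell by 1.82 (SE 0.12, adjusted p = 8.01e-06).

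SYT9 encodes a synaptotagmin, a calcium sensor of vesicle release. AC107884.1 (current name SYT9-AS1), tail to tail with it, went from 3.67, 2.29, 3.35 and 1.85 to 15.1, 11.1, 12.6 and 13.5 TPM (1.91 (SE 0.17, adjusted p = 3.24e-05)), and SYT9 from 4.795, 5.11, 5.13 and 5.31 to 33.2, 24.2, 27.1 and 30.995 TPM (2.29 (SE 0.10, adjusted p = 4.74e-07)). Both were higher in every differentiated library. OLFML1, which lies inside the same antisense gene, rose from 0.0661 to 7.16 TPM, by 2.93 on the log2 scale.

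DNM3OS (chr1:172138397-172144840, minus strand), inside DNM3 without exon overlap, had the highest level among the rises named here. It was at 66.3, 55.5, 67.9 and 58.99 and then 250.5, 199, 230.4 and 253 TPM, a rise of 1.89 (SE 0.09, adjusted p = 1.11e-06). DNM3, listed at 0 in replicate 18 and at most 0.484 TPM in the other undifferentiated libraries, reached 3.395, 3.92, 2.495 and 3.201 TPM (1.85 (SE 0.17, adjusted p = 3.42e-05)). The antisense gene stood above its partner in every library. The sign of their ratio change again depended on the pseudocount (0.04 at 1, -1.94 at 0.1 and 1.16 at 5).

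Of the pairs that fell together, AC007128.1 starts back to back with ICA1, a gene of secretory granule traffic. It went from 2.27, 2.14, 2.39 and 2.15 to 0.681, 0.391, 0.322 and 0.504 TPM (-1.14 (SE 0.11, adjusted p = 6.07e-05)). ICA1 went from 176, 183, 172 and 169.8 to 92.8, 75.8, 77.6 and 77.03 TPM (-1.11 (SE 0.07, adjusted p = 3.65e-06)), with replicate 21 the highest differentiated library for both. AC015712.2 (current name ALDH1A3-AS1) shares 1585 exonic bases with ALDH1A3, whose enzyme makes retinoic acid. It went from 3.68, 4.05, 4.32 and 3.78 to 1.92, 1.28, 1.66 and 1.495 TPM (-0.94 (SE 0.10, adjusted p = 0.000109)), and ALDH1A3 from 11.8, 11.1, 12.5 and 11.5 to 5.46, 5.11, 5.19 and 5.34 TPM (-1.02 (SE 0.06, adjusted p = 2.72e-06)). Groups did not overlap in any of these 4 genes. LRRK1, which starts back to back with the same antisense gene, also fell (-1.05, adjusted p = 0.000139). AC006148.1 and TMEM229A fell, with changes of -1.14 (SE 0.12) and -1.04 (SE 0.06).

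DBH-AS1 (chr9:133654586-133657313, minus strand) gave the largest opposite change. It lies inside DBH and shares 118 exonic bases with it, 103 of them in the coding stretch shown above. DBH-AS1 was at 0.747, 0.3396, 0.659 and 0.4997 and then 2.22, 2.95, 2.48 and 2.23 TPM (1.15 (SE 0.13, adjusted p = 0.000118)). DBH was at 204, 234, 231 and 234 and then 49.5, 42.6, 43.4 and 38.9 TPM (-2.35 (SE 0.08, adjusted p = 1.32e-07)). DBH-AS1 was higher and DBH lower in every differentiated library, and DBH remained the more abundant by TPM throughout. Their ratio rose by 3.5 (SE 0.16, adjusted p = 1.18e-06), the largest gain of any antisense pair.

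GATA2-AS1 starts back to back with GATA2, a transcription factor of the noradrenergic lineage, without exon overlap. It went from 8.77, 7.84, 8.69 and 8.83 to 17.6, 13.2, 16.002 and 17.4 TPM (0.83 (SE 0.10, adjusted p = 0.000138)). GATA2 went from 221, 227, 229.5 and 228 to 136, 146, 140.1 and 129 TPM (-0.71 (SE 0.04, adjusted p = 3.05e-06)). The antisense gene was higher and the partner lower in every differentiated library, and this pair was among the 10 of 50 with no exon overlap that moved in opposite directions.

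AC106820.3 rose by 1.14 (SE 0.17) inside the cyclin F gene CCNF, which fell from 17.01 ± 0.206 to 10.7 ± 0.588 TPM (-0.62 (SE 0.05, adjusted p = 2.52e-05)). AC068888.1 rose by 0.72 (SE 0.10) while EIF4B, a translation initiation factor gene, fell by 0.67 (SE 0.09). That antisense gene also starts back to back with TNS2, which rose by 2.41 (adjusted p = 1.89e-05), so the direction of this pair depends on which partner is taken. Taking the partner by the longest exon overlap instead gave 84 pairs of the same and 39 of opposite direction.

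Of pairs in which the antisense gene fell and the partner rose, AL137024.1 with PAPPA had one of the larger changes. PAPPA encodes a protease that frees insulin-like growth factors from a binding protein. AL137024.1, inside it without exon overlap, went from 3.15, 3.003, 2.703 and 3.03 to 1.62, 0.535, 0.728 and 0.924 TPM (-1.05 (SE 0.17, adjusted p = 0.000903)). PAPPA went from 0.924, 0.927, 1.07 and 0.917 to 4.83, 2.27, 4.08 and 4.59 TPM (1.3 (SE 0.18, adjusted p = 0.000477)). The antisense gene was the higher in all undifferentiated and the lower in all differentiated libraries. AL450384.2, tail to tail with the calcium channel subunit gene CACNB2, fell by 0.77 (SE 0.12) while CACNB2 rose by 0.96 (SE 0.08), and it also overlaps NSUN6 on its own strand, which makes its value uncertain. MID1IP1-AS1 fell by 0.76 (SE 0.25) against 0.89 for MID1IP1, but replicate 24, at 1.94 TPM, lay within the undifferentiated range. Its call was lost in lane 8 alone (adjusted p = 0.135), with lane as a term, with no minimum level, and without replicate 17, 19, 20, 21, 22 or 23 (-0.79 to -0.62 over these).

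**Figure D4:**
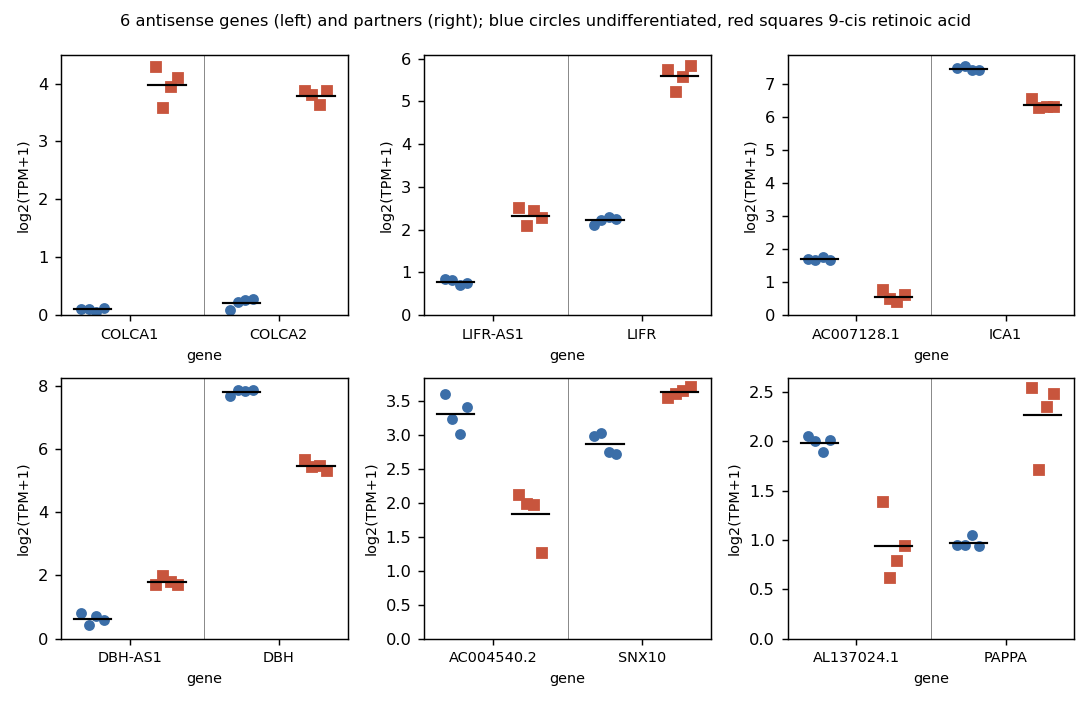
Values of 6 antisense genes (left of the grey line in each panel) and their partners (right) in each library as log2(TPM+1), with blue circles for undifferentiated, red squares for 9-cis retinoic acid and a bar at each group mean. COLCA1 and LIFR-AS1 rise with their partners and AC007128.1 falls with ICA1, whereas DBH-AS1 goes up and AC004540.2 and AL137024.1 go down against theirs, with no overlap between groups in any of the 12 genes.

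The ratio of the first to the other gene was tested over all 3012 overlapping opposite-strand pairs of any gene type. Of these 51.3% changed (25.4% gained and 25.9% lost). Where neither or both genes are antisense, the first gene is set by identifier, so that split is no background for direction. Among the 695 antisense pairs the ratio of antisense gene to partner rose in 157 and fell in 159 (45.5%). With exon overlap the counts were 112 and 104 of 478, and without it 45 and 55 of 217. The ratio is on the log2(TPM+1) scale, and for a low antisense gene beside an abundant partner it follows mostly the partner.

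The largest losses belonged to partners that rose. IFITM3, an interferon-induced antiviral gene, went from 0.916, 1.13, 1.69 and 1.54 to 56.02, 74.3, 65.3 and 64.4 TPM, and the antisense genes AC136475.1 and AC136475.4 rose by only 1.12 (SE 0.12) and 1.2 (SE 0.43). Their ratios to IFITM3 fell, with changes of -3.72 and -3.63. The call of AC136475.4 itself was lost in 12 of the alternatives, among them without replicate 17, 18, 19, 21, 23 or 24 (0.75 to 1.33 over the 12), and its groups overlapped. IFITM genes have close paralogs, and AC136475.4 lies within the span of AC136475.1 on the same strand, so these values are uncertain. PYGL, the liver glycogen phosphorylase gene, rose by 2.03 with a ratio loss of -2.48 for AL358334.3. AL358334.3 was itself called lower (-0.45 (SE 0.14, adjusted p = 0.0252)). That call was lost in lane 8 alone, with lane as a term and without replicate 18, 19, 20 or 24 (-0.46 to -0.40 over these). AP001363.1, beside the scaffold gene AHNAK (3.15), was listed at 0 in 3 of the 8 libraries (10.1, 0, 8.196 and 0 and then 5.33, 0, 3.48 and 1.87 TPM) and was not itself called. Its ratio loss of -3.23 was not called with lane as a term (-3.20) or a pseudocount of 0.1 (-2.75). AP002505.1, whose ratio to LDLRAD4 rose by 1.89, was not called itself either, and LDLRAD4 fell by 1.48.

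By TPM, the partner was above the antisense gene in all 8 libraries in 556 of the 695 pairs, and the antisense gene was above in 41. The median ratio of partner to antisense level was 7.27 in undifferentiated and 6.75 in differentiated cells. The order turned over between groups in 16 pairs. In 12 of them the antisense gene was above in every undifferentiated and below in every differentiated library, as for AC004540.2 with SNX10, AL137024.1 with PAPPA, and MYLK-AS1 with the myosin light chain kinase gene MYLK. MYLK rose from 3.64 ± 0.461 to 12.7 ± 3.26 TPM, whereas MYLK-AS1, at 6.79 and 5.66 TPM, was not called. The other 4 were AL160191.1 with SLC8A3, AL352979.2 with DDHD1, AL356599.1 with SHPRH and AL512785.1 with NOS1AP, in which the partner fell. The pairs named from the 16 were chosen after their values were seen.

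In the HOX clusters, whose genes set position along the embryo, 15 listed antisense genes were in the table and 4 were tested, of which 2 rose and 2 were not called. HAGLR in the HOXD cluster was at 7.22, 7.23, 6.72 and 7.44 and then 22.3, 14.2, 19.1 and 18.9 TPM (1.25 (SE 0.12, adjusted p = 5.1e-05)), and its partner HOXD3 rose by 0.91 (SE 0.13). HOTAIR in the HOXC cluster was at 17.2, 15.02, 16.2 and 15.5 and then 30.6, 24.4, 28.6 and 28.6 TPM (0.77 (SE 0.08, adjusted p = 5.7e-05)). Its partner HOXC11 did not pass the test (0.01). HOXD-AS2 and HOXC-AS1 were not called (0.16 and -0.33), although HOXD8 inside HOXD-AS2 rose from 15.6 ± 0.673 to 73.4 ± 12.4 TPM (2.15 (SE 0.11, adjusted p = 1.09e-06)). The median of the 4 was 0.47, beside 0.10 for all genes, of which 51.3% were called.

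Of 21 listed antisense genes of developmental transcription factors in the table, 9 were tested, of which 3 rose and 6 were not called, with a median of 0.00. Of all genes 51.3% were called, with a median of 0.10. RARA-AS1 lies inside RARA, the gene of retinoic acid receptor alpha, and was at 0.493, 0.405, 0.367 and 0.341 and then 2.09, 3.58, 3.26 and 2.87 TPM (1.48 (SE 0.14, adjusted p = 4.5e-05)). RARA was at 16.7, 15.4, 17.2 and 14.2 and then 33.9, 23.7, 29.5 and 30.1 TPM (0.84 (SE 0.11, adjusted p = 0.000307)). Both were higher in every differentiated library. TBX2-AS1 rose by 0.73 beside TBX2 (1.48), and GATA2-AS1 is given above. DLX6-AS1 was not called (7.69 ± 0.673 and 7.82 ± 1.596 TPM, log2 fold change 0.00 (SE 0.14)) while DLX6, a homeobox gene inside it, fell from 6.403, 5.101, 5.84 and 5.54 to 1.63, 1.001, 1.69 and 1.83 TPM (-1.42 (SE 0.13, adjusted p = 3.43e-05)). Their ratio rose by 1.42 (SE 0.09, adjusted p = 7.52e-06). ZEB1-AS1, NR2F1-AS1, RORA-AS1 and MEIS1-AS3 were not called (-0.02, -0.07, -0.29 and 0.41).

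Among antisense genes of neuronal and disease genes, 30 were in the table and 9 were tested. DBH-AS1, NRAV and PINK1-AS rose, ATXN8OS fell, 5 were not called and the median was 0.25, beside 51.3% called and a median of 0.10 for all genes. PINK1-AS rose by 0.64 (SE 0.08, adjusted p = 0.000181) beside PINK1, the mitochondrial kinase of recessive Parkinson disease (0.98 (SE 0.09, adjusted p = 4.19e-05)). It overlaps DDOST on its own strand, so its value is uncertain. ATXN8OS, the transcript of the ataxia type 8 repeat locus, was at 2.57, 2.45, 2.84 and 3.005 and then 1.09, 1.05, 2.06 and 1.76 TPM (-0.6 (SE 0.15, adjusted p = 0.0113)), with its partner KLHL1 listed at 0 in every library. ENTPD1-AS1 was at 30.2 ± 1.08 and 20.7 ± 6.85 TPM, with no overlap between groups, and missed the threshold (-0.59 (SE 0.22, adjusted p = 0.0551)). It was called lower after both scalings, with a minimum of 5 TPM and without replicate 21, 22 or 24 (-0.74 to -0.36 over these). BDNF-AS missed it as well (0.41 (SE 0.15, adjusted p = 0.0538)), and passed it without replicate 17 or 22 (0.41 to 0.51 over the alternatives with a call). The growth factor gene BDNF itself rose from 0.9501 ± 0.1003 to 1.62 ± 0.0919 TPM (0.42 (SE 0.10, adjusted p = 0.00662)).

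Of 29 listed antisense genes of signalling, matrix and growth genes in the table, 18 were tested, 9 rose and 5 fell, with a median of 0.29. Over all genes tested 33.9% rose and 17.4% fell, with a median of 0.10. ARHGAP5-AS1 went from 2.21, 1.68, 2.52 and 2.63 to 8.504, 9.98, 7.94 and 9.26 TPM (1.61 (SE 0.12, adjusted p = 9.72e-06)), and ARHGAP5, the gene of a GTPase-activating protein, rose by 0.72 (SE 0.10). SPRY4-AS1 rose by 0.78 (SE 0.19), a call lost in lane 8 alone (0.56, adjusted p = 0.11), beside FGF1 at 2.09 and, on its other side, the feedback inhibitor gene SPRY4 at 1.12. TMPO-AS1 rose by 0.35 (SE 0.07) and the nuclear lamina gene TMPO fell by 0.36 (SE 0.07), the former not called in lane 8 alone or after quantile normalization (0.31 and 0.10). VIM-AS1 did not pass the test (0.23 (SE 0.14, adjusted p = 0.193)) although VIM, the gene of the intermediate filament vimentin, rose from 201 ± 10.1 to 553 ± 56.3 TPM. The falls were of MCM3AP-AS1 (-0.92), IGFBP7-AS1 (-0.79), PRKAG2-AS1 (-0.71), CKMT2-AS1 (-0.53) and ZFAS1 (-0.32). That of MCM3AP-AS1 was not called in lane 8 alone (-0.86, adjusted p = 0.0603). The call of CKMT2-AS1 was lost without replicate 17, 20 or 23 (-0.51 to -0.49 over these and the lane alternatives), and that of GAS6-AS1, a rise of 0.52, without replicate 18, 19, 21 or 24, in lane 8 alone and with lane as a term (0.40 to 0.54, highest adjusted p 0.0984). GAS6-AS1 overlaps TMEM255B on its own strand, so its value is uncertain.

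The most abundant antisense gene was HAND2-AS1, which starts back to back with HAND2, a transcription factor of sympathetic neurons. HAND2-AS1 was at 492, 453, 468 and 472 and then 532, 375, 425 and 463 TPM, and HAND2 at 444, 435, 448 and 431 and then 433, 394, 421 and 439.5 TPM. The groups overlapped for both, and neither was called (-0.08 (SE 0.10) and -0.06 (SE 0.04)), although both were called lower after median-of-ratios scaling (-0.21 and -0.19). ZFAS1, the host of small nucleolar RNAs, fell from 175 ± 3.82 to 140.1 ± 13.8 TPM (-0.32 (SE 0.07, adjusted p = 0.00385)). FGD5-AS1 rose from 83.4 ± 1.04 to 131 ± 10.4 TPM (0.64 (SE 0.06, adjusted p = 3.6e-05)) with FGD5 at 0.1199 and 0.101 TPM. AC006026.3 was at 124 ± 9.87 and 123 ± 32.3 TPM and was not called.

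Among tested antisense genes, 13 hold 20 microRNA genes on their own strand. Of these hosts 4 rose and 1 fell, where 51.3% of all genes tested were called. Those that rose were DNM3OS, which holds the miR-214 and miR-199a genes shown above, AC234582.1 with the miR-92b gene (1.47, adjusted p = 3.65e-05), AC138207.2 with the miR-4733 gene (0.86, adjusted p = 0.00169) and RAB11B-AS1 with the miR-4999 gene (0.57, adjusted p = 0.0352). DLEU2, a host gene lost in chronic lymphocytic leukaemia, fell from 39.98 ± 2.86 to 26.1 ± 2.27 TPM (-0.60, adjusted p = 0.000274). It holds the genes of miR-15a and miR-16, with the shared seed shown above, and of miR-3613. Its partner TRIM13 was at 28.2 and 27.0 TPM and was not called, so DLEU2 went from above to below it. Mature microRNAs were not measured in these libraries.

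Most antisense genes were too low to test. Of the 4454 with a partner, 3593 had a mean under 1 TPM. Of these, 1362 were listed at 0 in every library, 981 had a mean above 0 and under 0.1 TPM and 1250 a mean of 0.1 to under 1 TPM, and 329 reached 1 TPM in at least 1 library. The members nearest the minimum were MEF2C-AS2 and CD44-AS1 just inside it (1.00 TPM each) and PRRT3-AS1 and LINC00852 just outside it (0.999 and 0.996 TPM). With the minimum set at 0.1 TPM, 108 of the 1250 were called higher and 47 lower. Of all 25425 genes tested at that minimum 38.3% were called. Of those genes 17077 had a mean of 1 TPM or more, so that share is not matched in level to the 1250.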

How the data were processed

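Expression came from mRNA sequencing of SH-SY5Y cells, 4 libraries undifferentiated and 4 differentiated by their labels. The deposited values are TPM of 194993 Ensembl transcripts, a unit that corrects for transcript length, sums to 1000000 in a library and keeps no depth. Read depth is therefore unknown, and no counting interval is given. The tools were FastQC 0.11.2 and Salmon, and the build GRCh37, per the submitters' processing notes. A stranded kit was used, per the labels' protocols. Salmon's version, options, strand setting and transcript annotation are not stated in the sources used here.

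Transcripts were matched by identifier to GENCODE 29 (GRCh38), which gave gene types, spans and exons. Of the transcripts 180930 (92.8%) matched, with 93.2% to 95.0% of a library's TPM. TPM were summed per gene. Genes that averaged at least 1 TPM were tested with limma 3.58.1 (trend) in R 4.3.3 on log2(TPM+1), two-sided, with a call at a p under 0.05 after Benjamini-Hochberg adjustment over all 17077 tested genes. Ratios were tested with limma over 3012 opposite-strand pairs. The steps were tested on simulated data. Python 3.11.15 with pandas 2.3.3 and numpy 2.4.6 handled the tables.

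The genes named are the 10 largest rises and 10 largest falls with groups that do not overlap, the 4 pairs of each combination of directions with the largest smaller change, the 5 most abundant, the 6 largest ratio changes in each direction, and tested members of 4 lists. Of the 10 rises, 1 is not reported here. Members and lists were chosen with earlier results of these data known. Alternatives changed the pseudocount, minimum, scaling, lane handling, trend, partner choice and libraries.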

Additional observations from a re-analysis of the deposited data

Results flagged for a closer look

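Among 268 groups of 4 libraries checked for the genes named above, 14 held a library far from the other 3, and about 1 group in 20 is picked out by chance. In each, the gap to the nearest other library, divided by the range of the group, was above Dixon's critical value.

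They fell on 8 antisense genes and 5 partners. AC090707.1 was at 0.224 TPM in differentiated replicate 24 and listed at 0 in the others. IGFBP7-AS1 was at 0.970 TPM in differentiated replicate 23, against 1.64 to 1.67. AP006284.1 was at 6.50 TPM in differentiated replicate 23, against 7.13 to 7.21. AC068888.1 was high both in undifferentiated replicate 20 (6.03 TPM, against 4.43 to 4.66) and in differentiated replicate 21 (9.495 TPM, against 8.34 to 8.43). Undifferentiated replicate 18 was low for GATA2-AS1 (7.84 TPM, against 8.69 to 8.83) and high for AC004584.1 (12.9 TPM, against 10.9 to 11.2). BDNF-AS was at 1.72 TPM in undifferentiated replicate 17, against 1.03 to 1.10, and ST7-AS1 at 1.63 TPM in undifferentiated replicate 20, against 1.16 to 1.21.

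Of the partners, ICA1 was at 92.8 TPM in differentiated replicate 21, against 75.8 to 77.6, and THAP9 at 7.07 TPM there, against 4.93 to 5.16. PAPPA was at 1.07 TPM in undifferentiated replicate 19, against 0.917 to 0.927. Undifferentiated replicate 17 was high for CACNB2 (2.99 TPM, against 2.44 to 2.53) and low for DBH (203.6 TPM, against 231 to 234). Apart from AC004584.1 and BDNF-AS, given in the report, leaving out the library concerned did not change the call of these genes, except that THAP9 was called lower without replicate 21.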

How the results depend on the processing

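Of 198 gene and ratio results named, 56 had at least 1 of 19 alternatives that changed the call or direction. Directions turned over in 5, all of them ratios with a changed pseudocount: AC090707.1 to NELL1 (-1.26) and DNM3OS to DNM3 (-1.94) at 0.1, and AC006148.1 to TMEM229A (0.47), AC007128.1 to ICA1 (0.67) and RARA-AS1 to RARA (-0.16) at 5. Ratios of low antisense genes are thus limited by the pseudocount, and depth is unknown.

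Counts are given as antisense genes higher and lower, partners higher and lower, pairs of the same and of opposite direction, and ratios gained and lost. Lower antisense genes numbered 112 under median-of-ratios scaling. Quantile normalization gave 158 and 163 antisense genes and 198 lower partners. Lane 8 alone gave 42 lower antisense genes, 20 opposite pairs and 103 gains, and lane as a term gave 27 opposite pairs. A minimum of 0.1 TPM gave 112 lower antisense genes, partners 619 and 309, pairs 172 and 80, and ratios 334 and 434. A minimum of 5 TPM gave antisense genes 104 and 33, partners 66 and 33, pairs 44 and 16, and ratios 45 and 42. No minimum gave 119 lower antisense genes, partners 807 and 423, pairs 174 and 77, and ratios 500 and 684. Pairs without exon overlap alone gave partners 96 and 38, pairs 40 and 10, and ratios 45 and 55. These minimums and that subset change how many genes or pairs are tested, and for scaling and lane the cause was not tested. Leaving out 1 library at a time gave 212 to 275 and 55 to 80 antisense genes, 242 to 306 and 112 to 150 partners, 99 to 146 and 32 to 52 pairs, and 126 to 165 and 138 to 161 ratios. No paired analysis was possible because the groups share no replicate number.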
